A study of Homo sapiens with 7 samples.

Results

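FOXA1 and SETD7 peaks were described at 5 windows of the genome that hold 7 genes whose products are typical of the secretory luminal cells of the prostate: SLC45A3, TRPM8, ACPP, STEAP1, STEAP2, KRT8 and KRT18. The windows, on build hg19, were chr1:205530000-205750000 for SLC45A3, chr2:234730000-235030000 for TRPM8, chr3:131940000-132180000 for ACPP, chr7:89690000-89970000 for STEAP1 and STEAP2, and chr12:53190000-53450000 for KRT8 and KRT18. A peak belonged to a window when its midpoint lay inside it, and 408 of the 467188 peaks in the 7 deposited lists did. Peaks of any list that overlapped by at least 1 bp were joined into sites, which gave 155 sites, 134 of them with FOXA1. The windows are fixed stretches of sequence, so a site in a window is not thereby tied to the gene it is named for. RefSeq's gene order placed ELK4 and NUCKS1 beside SLC45A3, MSL3B and SPP2 beside TRPM8, and CPNE4 and DNAJC13 beside ACPP, which RefSeq lists as ACP3. STEAP1 and STEAP2 followed each other between TEX47 and CFAP69, and KRT8 and KRT18 followed each other between KRT78 and EIF4B. Peaks are given by position only, because no gene models of build hg19 were used here. Expression was not measured either, so the luminal label describes the genes and was not checked in these cells.

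Chromatin immunoprecipitation followed by sequencing (ChIP-seq) was carried out in 2 human prostate cancer cell lines grown in serum-supplemented medium, CWR22-Rv1 (called 22Rv1 below) and LNCaP. Vehicle 22Rv1 cells gave the SETD7 map, and FOXA1 was mapped in 22Rv1 cells given vehicle, in cells with the control hairpin shCTL (shNTC in the series description) and in cells with shSETD7, a hairpin against SETD7; the hairpin cells expressed them stably. In LNCaP, FOXA1 was mapped after 4 hours of DMSO, of GSK2879552, which inhibits the histone demethylase LSD1, or of GSK2879552 with PFI-2, which inhibits SETD7. The last library is called the combination, after its title; its treatment label is worded to cover GSK2879552 with or without PFI-2. The labels do not state doses, how many hairpins or clones were used, or what the 22Rv1 vehicle was. Each group was 1 library, so replicate spread is unknown, conditions could not be tested, and a difference between lists compares those libraries.

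FOXA1 is a forkhead transcription factor that opens compacted chromatin and lets the androgen receptor reach its enhancers in luminal prostate cells. SETD7 is a lysine methyltransferase that acts on histone H3 and on other proteins, and LSD1 removes methyl groups from lysines. The series addresses the action of SETD7 on FOXA1. ACPP encodes prostatic acid phosphatase, a secreted enzyme of the luminal cell, and SLC45A3 encodes prostein, a membrane protein of the sugar transporter kind that responds to androgen. TRPM8 is a cation channel opened by cold and menthol. STEAP1 and STEAP2 are membrane proteins of a metalloreductase family, and KRT8 and KRT18 are the paired keratins of simple and luminal epithelium.

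Several properties of the lists bear on every value below. The lists held between 25526 peaks (SETD7) and 83994 peaks (shCTL), and 23 to 73 peaks of each list lay in the windows, which was 0.0845 to 0.0950% of a list. The lists do not give read depth, and its part in the differences between them was not tested. In the list labelled 22Rv1 vehicle FOXA1, siNTC stands in all 65461 peak names although no label speaks of it. That list is called vehicle as labelled. Counts of sites in every FOXA1 list, or in every list of a single line and none of the other, are also given without it. Other counts that rest on the vehicle list were not recomputed. Whether the hairpin lowered SETD7 cannot be read from peak lists. The authors' score of a peak was used only to rank it within its own list. A percentile below is that rank, with 100 at the highest score, ties at their middle rank and 50 as the median of any whole list.

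The promoter entries of the member genes that hold a forkhead core are shown here, since that core is the sequence FOXA1 recognises. The motif TGTTTAC, its variant with TATTTAC and its variant with TGTTTGC were searched on both strands of RefSeq promoters of build GRCh38.p14, which run from 250 bases before a gene start to 50 after it, and matches are in capitals. No 2 of these motifs overlapped at the matches shown. Of the 7 genes, 6 had an entry (KRT18 did not) and these gave 12 entries, of which 4 held a match.
ACP3 (ACPP), chr3:132317157-132317456, plus strand: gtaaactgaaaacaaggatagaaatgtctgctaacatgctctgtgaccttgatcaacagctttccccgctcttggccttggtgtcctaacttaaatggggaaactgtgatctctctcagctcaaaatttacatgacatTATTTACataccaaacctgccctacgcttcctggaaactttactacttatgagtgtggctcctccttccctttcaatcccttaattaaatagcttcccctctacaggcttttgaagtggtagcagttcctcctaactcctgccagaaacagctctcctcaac
KRT8, chr12:52926420-52926719, minus strand: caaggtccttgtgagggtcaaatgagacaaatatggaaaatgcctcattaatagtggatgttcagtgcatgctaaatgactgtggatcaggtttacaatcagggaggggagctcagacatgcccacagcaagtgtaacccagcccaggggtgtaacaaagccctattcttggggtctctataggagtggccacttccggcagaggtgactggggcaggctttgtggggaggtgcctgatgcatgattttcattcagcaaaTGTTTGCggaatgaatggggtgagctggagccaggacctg
STEAP2, chr7:90213570-90213869, plus strand: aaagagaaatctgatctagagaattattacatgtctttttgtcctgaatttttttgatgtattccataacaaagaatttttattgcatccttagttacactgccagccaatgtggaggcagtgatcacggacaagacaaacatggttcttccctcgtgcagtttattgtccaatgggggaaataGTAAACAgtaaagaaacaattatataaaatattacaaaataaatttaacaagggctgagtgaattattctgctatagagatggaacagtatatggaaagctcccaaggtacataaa
TRPM8, chr2:233953503-233953802, plus strand: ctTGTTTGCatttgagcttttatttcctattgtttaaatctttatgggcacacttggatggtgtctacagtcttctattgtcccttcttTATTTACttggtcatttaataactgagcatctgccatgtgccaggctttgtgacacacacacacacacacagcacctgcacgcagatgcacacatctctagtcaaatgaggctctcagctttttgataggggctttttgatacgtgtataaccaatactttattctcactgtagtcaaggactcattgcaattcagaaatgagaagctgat
The ACP3 match, TATTTAC, began 112 bases before the gene start, and the KRT8 match, TGTTTGC, began 10 bases after it. The STEAP2 entry shown held TGTTTAC on the opposite strand, so that it reads GTAAACA in the line above, beginning 66 bases before the start. The other STEAP2 entry, chr7:90211490-90211789, held no match. The TRPM8 entry, 1 of 6 for that gene, held TGTTTGC, beginning 248 bases before the start, and the variant TATTTAC, beginning 161 bases before it. Among all 35116 promoter entries, 3.42% held the motif TGTTTAC, 2.67% the variant TATTTAC, 3.89% the variant TGTTTGC and 9.57% any of them. A match describes the letters only, and the peaks, which are on build hg19, were not placed against these entries.

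FOXA1 peaks were dense at ACPP, SLC45A3 and STEAP1/STEAP2 in both lines, dense at KRT8/KRT18 mainly in the 22Rv1 lists, and sparse at TRPM8 in 22Rv1. The STEAP1/STEAP2 window held 19, 16 and 11 FOXA1 peaks in the vehicle, shCTL and shSETD7 lists and 24, 21 and 23 in the DMSO, GSK2879552 and combination lists. The SLC45A3 window held 11, 20 and 15 in 22Rv1 and 14, 13 and 14 in LNCaP. At ACPP the counts were 12, 15 and 12 in 22Rv1 and 13, 13 and 16 in LNCaP. In these windows every FOXA1 list held more peaks than the median window of the same width on chromosomes 1 to 22, X and Y, which held 4 to 8. The KRT8/KRT18 window held 11, 17 and 14 peaks in 22Rv1 against window medians of 5, 7 and 5, and 9, 6 and 9 in LNCaP against 7, 5 and 7. In 22Rv1 that was 42.3, 65.4 and 53.8 peaks per Mb. Chromosome 12 itself held 31.8, 40.8 and 31.6 there, above the 21.2, 27.1 and 20.7 of all chromosomes. In LNCaP the window held 34.6, 23.1 and 34.6 per Mb, where chromosome 12 held 29.5, 23.6 and 31.1. TRPM8 had 3 peaks in each 22Rv1 list, where the median window of that width held 6, 8 and 5.5. In LNCaP it had 9, 8 and 11 against medians of 8, 6 and 8. Each 22Rv1 list held 10 peaks per Mb at TRPM8. Chromosome 2 itself held 17.5, 22.9 and 15.8 in those lists, below all chromosomes. The 5 windows were chosen for their genes, so these densities describe the windows and are not a test.

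**Figure D1:**
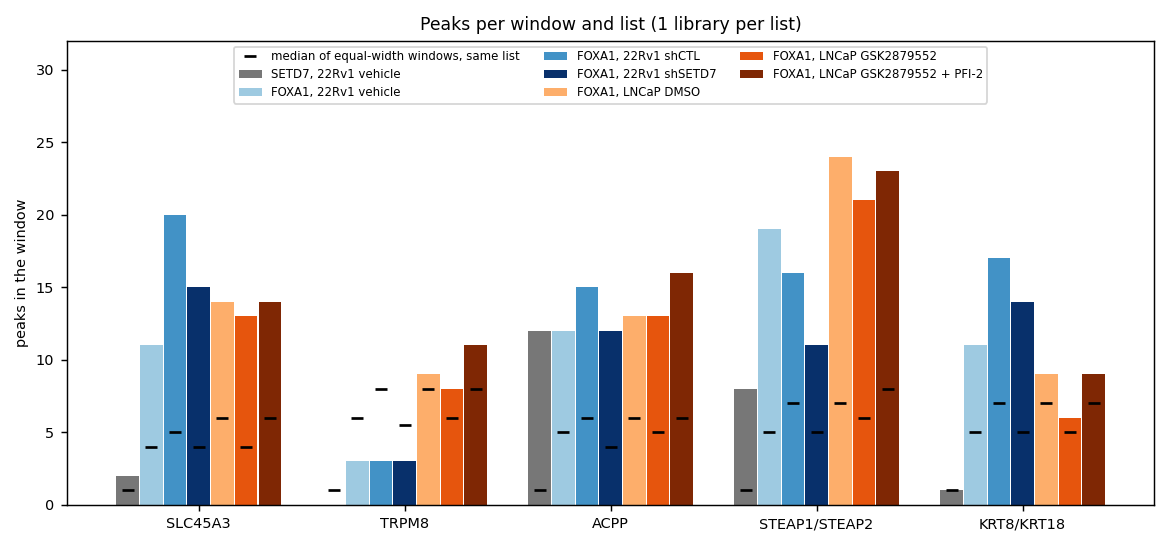
Number of peaks in each window (vertical axis) for the 7 lists (bars, 1 library each), with the median over windows of the same width in the same list as a black dash. The 22Rv1 FOXA1 bars at TRPM8 stand at 3, under their dashes, and the SETD7 bar is highest at ACPP, at 12.

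**Figure D2:**
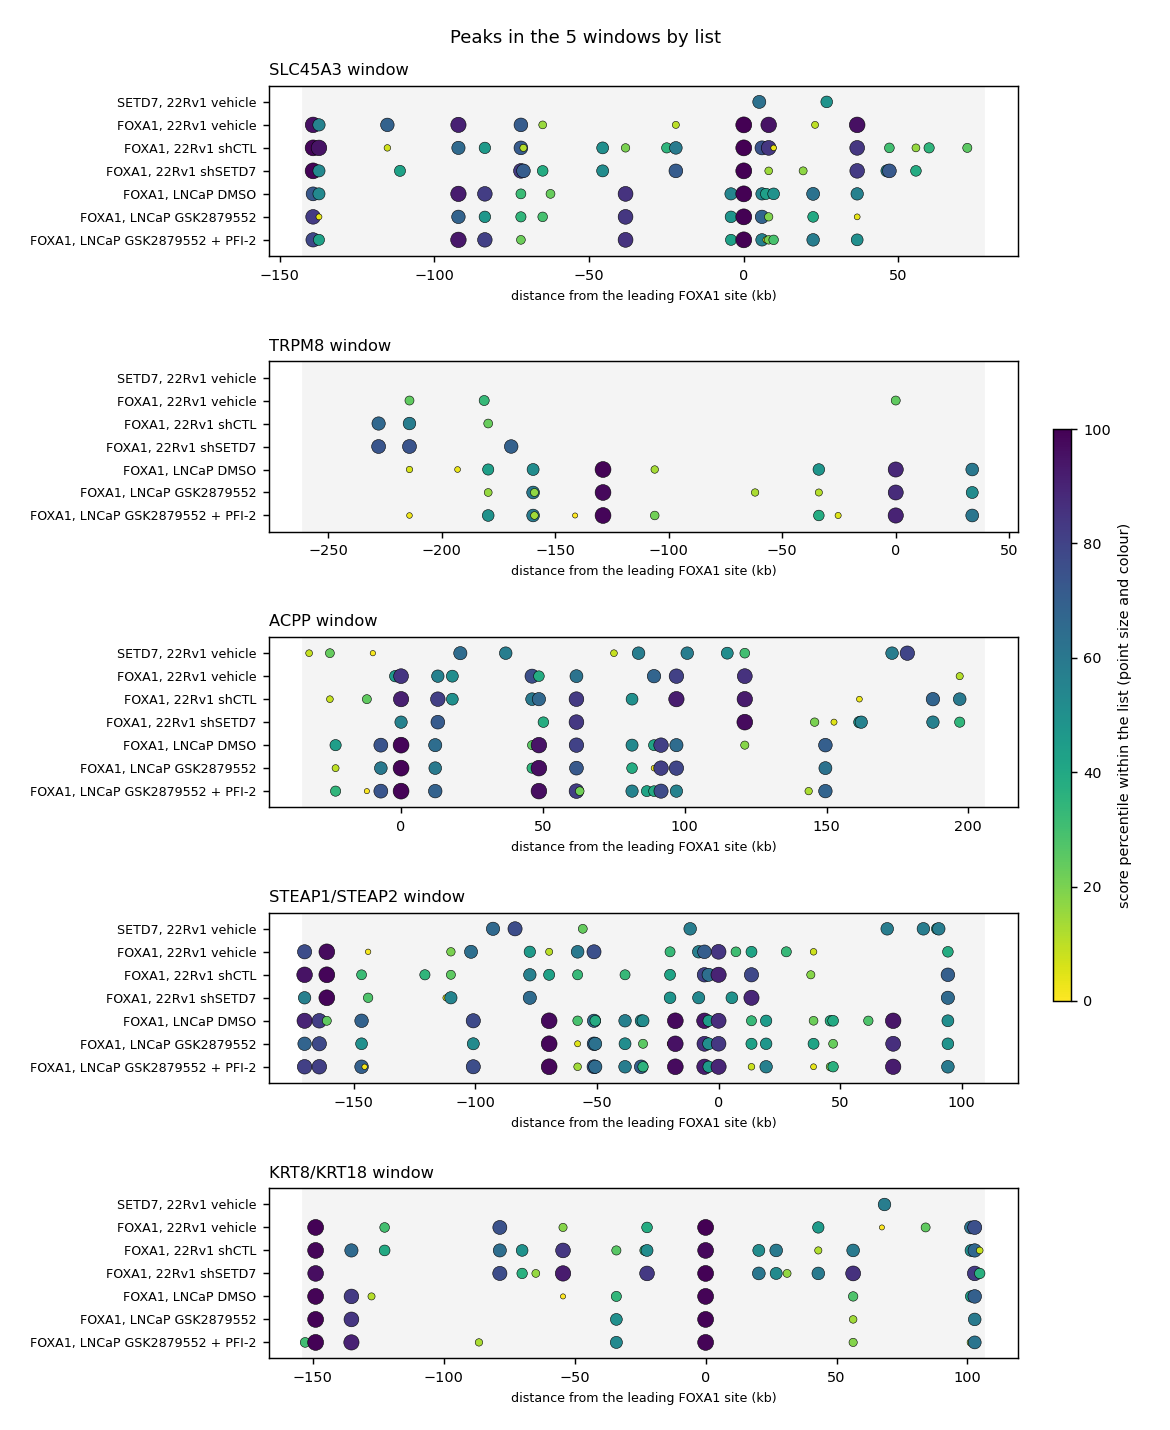
Peaks of the 7 lists (rows) along each window, placed by distance in kb from the leading FOXA1 site of that window; grey marks the window, and point size and colour give the score percentile within the list. The dark column at 0 in the SLC45A3 and KRT8/KRT18 panels is a site that stood at percentile 97.9 or above in all 6 FOXA1 lists.

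Across the windows the member peaks lay near the middle of their lists. The median percentile, with a 95% binomial interval from the ordered values, was 56.0 (38.7 to 68.0) in the vehicle list, 57.0 (42.8 to 65.7) in shCTL and 56.6 (51.9 to 71.4) in shSETD7. It was 54.4 (45.6 to 69.0) in DMSO, 52.6 (47.4 to 68.1) with GSK2879552, 56.2 (41.7 to 68.3) in the combination and 58.1 (40.6 to 58.1) in the SETD7 list. These intervals held 50 in every list but shSETD7. Of the 134 FOXA1 sites, 13 had a peak in all 6 FOXA1 lists (9.70%, 95% Wilson interval 5.76 to 15.9%), where 8.42% of all 173152 merged FOXA1 sites did. Peaks of 1 list made up 40 sites (29.9%, 22.8 to 38.1%, against 38.8% of all sites). The shSETD7 list held 12 of those, the vehicle and combination lists 8 each, shCTL 7, DMSO 4 and GSK2879552 1. Sites in all 6 lists had a median percentile of 79.0, while sites in 1 list had 23.8. Of the 13 shared sites, 5 lay at SLC45A3, 3 each at STEAP1/STEAP2 and KRT8/KRT18, 2 at ACPP and none at TRPM8. Peaks of a site were joined in chains, so they need not all overlap each other. At chr7:89874018-89874809, 1 of the 13, the DMSO peak had no overlapping combination peak. Leaving out the vehicle list, 15 sites were in all of the other FOXA1 lists. Wilson intervals here cover counting error only, and neighbouring peaks of a window are not independent.

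At SLC45A3, a single site stood near the top of every FOXA1 list. The site chr1:205672092-205672721 scored 3157 in the vehicle list, 29583 in shCTL, 16003 in shSETD7, 2813 in DMSO, 2524 with GSK2879552 and 3047 in the combination. Those scores ranked 10 of 65461, 2 of 83994, 20 of 63952, 36 of 80205, 27 of 64217 and 29 of 83833 peaks. No library stood apart, since each had the site among its 36 highest peaks, and no SETD7 peak overlapped it. Its peak was 402 to 583 bp wide, narrowest with GSK2879552 and widest in the combination. The nearest SETD7 peak was centred 5.01 kb away at chr1:205677297-205677545, at percentile 63.3, with no FOXA1 peak of any list. The other SETD7 peak of the window, chr1:205698978-205699445, was 26.8 kb away at percentile 48.6 and likewise had no FOXA1 peak.

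Other SLC45A3 sites differed more between the lists. The site chr1:205532978-205533457, in all 6 lists, had percentiles of 95.4, 98.8 and 99.1 in the vehicle, shCTL and shSETD7 lists and 73.0, 82.5 and 78.8 in DMSO, GSK2879552 and the combination, so that the lines did not overlap; it was chosen after its values were seen. The highest-scoring shCTL peak without an shSETD7 peak, chr1:205678099-205678488, stood at 74.4 in shCTL, 55.2 in DMSO, 68.0 with GSK2879552 and 56.2 in the combination. It was absent from the vehicle list too. The highest DMSO peak without a GSK2879552 peak, chr1:205681739-205682379, was at 49.3 in DMSO and 28.9 in the combination. Of the 29 FOXA1 sites here, 12 were found in both lines, 13 in 22Rv1 lists only and 4 in LNCaP lists only. The only site in all 3 22Rv1 lists and no LNCaP list, chr1:205650309-205650607, stood at 10.5, 58.9 and 71.4. Of the 2 sites with the reverse pattern, chr1:205694638-205695008 reached the higher percentile, with 62.1, 39.6 and 58.1. Neither reached percentile 90 in any list.

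At TRPM8, most FOXA1 sites were found in the LNCaP lists only. The window held 16 FOXA1 sites, 10 of them in LNCaP lists only and 3 in 22Rv1 lists only. Without the share of all sites found in LNCaP lists only, it is not known whether this is particular to the window. Its strongest peak by percentile, chr2:234861864-234862454, had scores of 1854 in DMSO, 1321 with GSK2879552 and 1853 in the combination, at percentiles 99.2, 98.0 and 98.8 and ranks 662, 1295 and 1029. No 22Rv1 list had a peak there, so it was the highest LNCaP site of any window that 22Rv1 lacked. The site that led by its median over the 6 FOXA1 lists, with an absent peak counted as 0, was chr2:234990822-234991505. It stood at 88.8, 87.6 and 90.3 in DMSO, GSK2879552 and the combination and at 24.3 in the vehicle list, and had no peak in shCTL or shSETD7. Without the list tagged siNTC this site too would have no 22Rv1 peak. The 3 shCTL peaks of the window stood at 66.5, 58.2 and 23.1, and the highest shSETD7 peak at 74.1. No SETD7 peak was called in the window.

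At ACPP, the leading site ranked high in LNCaP and lower after SETD7 knockdown in 22Rv1. The site chr3:131974245-131974805 scored 266 in the vehicle list, 997 in shCTL and 101 in shSETD7, at percentiles 84.6, 91.3 and 55.8. In LNCaP it scored 1686, 1536 and 1873, at 98.7, 98.9 and 98.8. The shSETD7 value was the lowest of the 6, and the LNCaP values lay above every 22Rv1 value. The neighbouring site chr3:131987273-131987710 was in all 3 22Rv1 lists, at 56.5, 81.5 and 71.5, and in no LNCaP list. The site chr3:132065998-132066369 showed the reverse, with 81.0, 81.3 and 77.1 in LNCaP and no 22Rv1 peak. The highest shCTL peak of any window without an shSETD7 peak was also at ACPP, at chr3:132071402-132071810. It stood at 80.8 in the vehicle list, 92.0 in shCTL, 65.1 in DMSO, 79.2 with GSK2879552 and 55.8 in the combination, so that shSETD7 was the only FOXA1 list without it.

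ACPP also held the sites at which SETD7 and FOXA1 peaks overlapped. At chr3:132095440-132095980 a SETD7 peak scored 22 (percentile 30.4), and FOXA1 scored 284, 1168 and 1870 in the vehicle, shCTL and shSETD7 lists, at 85.8, 92.7 and 97.2. The same site had a low DMSO peak (percentile 18.2) and none with GSK2879552 or in the combination. FOXA1 therefore had its highest percentile there in the shSETD7 list, and this was also the only DMSO peak of the window without a GSK2879552 peak. The second overlap, at chr3:131949100-131949774, joined a SETD7 peak at percentile 23.6 to an shCTL FOXA1 peak at 8.60. The remaining 10 SETD7 peaks of the window had no FOXA1 peak of any list.

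The STEAP1/STEAP2 window held the most FOXA1 sites, 37, of which 14 were in both lines, 12 in LNCaP lists only and 11 in 22Rv1 lists only. Its leading site, chr7:89860662-89861109, scored 268 in the vehicle list, 920 in shCTL, 659 in DMSO, 541 with GSK2879552 and 843 in the combination, at percentiles 84.7, 90.5, 86.9, 83.9 and 89.6. The shSETD7 list alone had no peak there. The 5 lists with a peak thus placed the site between 83.9 and 90.5. The site chr7:89842807-89843384, 17.8 kb away, reached the highest percentile of the 8 sites in all 3 LNCaP lists and no 22Rv1 list, at 97.4, 95.4 and 97.2. Of the 2 sites in all 3 22Rv1 lists and no LNCaP list, chr7:89782709-89783786 reached the higher, with 45.9, 57.0 and 65.6.

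A pair of STEAP1/STEAP2 sites, chosen after their values were seen, had opposite orders in the lines. At chr7:89699516-89699973 the percentiles were 97.2, 98.6 and 98.5 in the vehicle, shCTL and shSETD7 lists and 24.5 in DMSO, with no peak in the other LNCaP lists. At chr7:89790935-89791441 they were 97.6, 98.3 and 98.1 in DMSO, GSK2879552 and the combination, 42.8 in shCTL, 10.5 in vehicle and no peak in shSETD7. Each of these sites was therefore counted as present in both lines although its rank lay far apart in them. The highest DMSO peak of any window without a GSK2879552 peak, chr7:89828842-89829234, stood at 51.6 in DMSO and 69.7 in the combination.

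KRT8/KRT18 had a pair of sites high in every FOXA1 list. The leading site, chr12:53343466-53343983, scored 2065, 2825 and 4261 in the vehicle, shCTL and shSETD7 lists, which ranked 127, 1803 and 499. In DMSO, GSK2879552 and the combination it scored 1867, 1814 and 1927 and ranked 641, 333 and 851. Its percentiles lay between 97.9 and 99.8, with the lowest in shCTL. The site chr12:53194449-53195091, chosen after its values were seen, stood at 99.5, 98.8 and 96.3 in 22Rv1 and 98.9, 99.5 and 99.5 in LNCaP, and was lowest in shSETD7. No site of this window was in all 3 LNCaP lists and absent from 22Rv1, whereas 3 were in all 3 22Rv1 lists and absent from LNCaP. Of those, chr12:53321137-53321574 had the highest single percentile, 83.5 in shSETD7, with 38.7 in vehicle and 51.3 in shCTL. Another of the 3, chr12:53264947-53265311, chosen after its values were seen, stood higher in vehicle and shCTL, at 74.6 and 64.2, and at 76.9 in shSETD7. The highest shCTL peak without an shSETD7 peak, chr12:53208198-53208684, was at 65.7 in shCTL and at 82.6, 84.5 and 90.7 in the LNCaP lists.

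**Figure D3:**
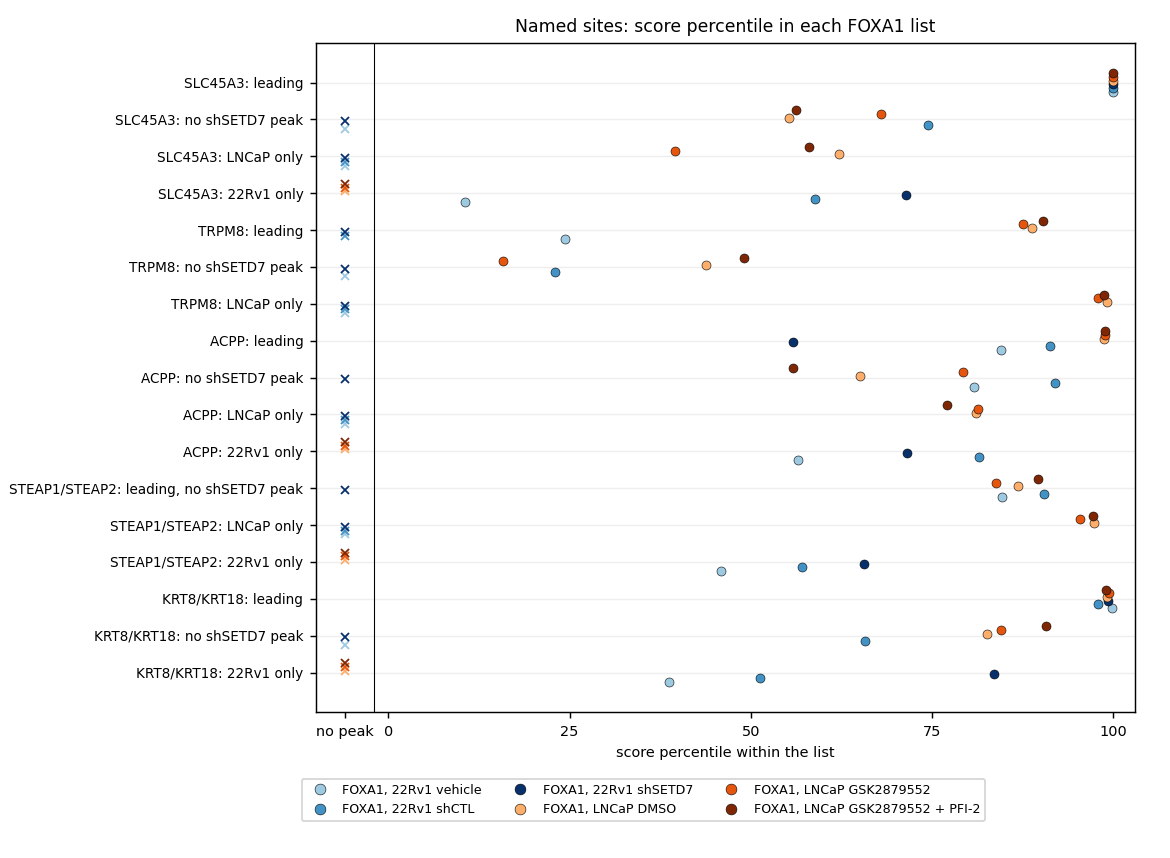
Score percentile within the list (horizontal axis) of the sites named by rule in each window, for the 6 FOXA1 lists (points); a cross on the left marks a list with no peak at the site. All 6 points lie together at the right end for the SLC45A3 and KRT8/KRT18 leading sites, while the TRPM8 site of LNCaP only has 3 points from 98.0 to 99.2 and 3 crosses.

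Knockdown of SETD7 was compared by asking which shCTL peaks had an overlapping shSETD7 peak. In the windows, 31 of 71 shCTL peaks (43.7%, 95% Wilson interval 32.7 to 55.2%) had none, where the whole list gave 55.5%. At the score deciles of the member peaks the whole list gave 53.0%, inside that interval. Weighted to the members' chromosomes it gave 56.1%, above the interval. The absent peaks numbered 9 of 20 at SLC45A3, 1 of 3 at TRPM8, 7 of 15 at ACPP, 9 of 16 at STEAP1/STEAP2 and 5 of 17 at KRT8/KRT18. Each window's interval reached the whole-list share except that of KRT8/KRT18, whose 29.4% had an interval of 13.3 to 53.1%; that range held neither 55.5% nor the 54.0% of the list at its score deciles. Absent peaks had a median percentile of 34.9 against 65.3 for peaks that were kept, and 12 of the 42 member peaks in the upper 50% of the list were among them. The same medians and upper-50% share were not computed for the whole list, so they are not shown to be particular to the windows.

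The shCTL and vehicle lists, neither from cells with the SETD7 hairpin, differed by a share of similar size. Of the shCTL peaks in the windows, 32 of 71 (45.1%, 34.0 to 56.6%) had no vehicle peak, where the whole list gave 48.7%. Weighted to the members' chromosomes the list gave 48.3%, inside the interval. Of the vehicle peaks, 25 of 56 (44.6%, 32.4 to 57.6%) had no shSETD7 peak, against 56.6% of the list. At the members' score deciles the list gave 54.8%, inside the interval, and on the members' chromosomes 58.5%, above it. In the other direction 15 of 55 shSETD7 peaks (27.3%, 17.3 to 40.2%) had no shCTL peak, against 41.8% of the list and 33.8% at the members' score deciles. On the members' chromosomes the list gave 46.8%, above the interval. These 3 lists are compared with each other, so the shares are not independent.

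Where the absent peaks lay in other lists was also counted. Of the 31 shCTL peaks without an shSETD7 peak, 12 (38.7%) overlapped a vehicle peak, the same share as the 38.7% of all such peaks. In LNCaP DMSO, 20 of the 31 (64.5%, 46.9 to 78.9%) had a peak, above the 38.5% of all such peaks. Of the 40 shCTL peaks that were kept, 19 (47.5%, 32.9 to 62.5%) had a DMSO peak, where the whole list gave 53.5%. In the windows the order of absent and kept peaks was thus the opposite of that in the whole list, although the members' intervals overlapped. Of the 15 shSETD7 peaks without an shCTL peak, 3 overlapped a vehicle peak (20.0%, 7.05 to 45.2%, against 12.0% of the list), and none of 15 overlapped a DMSO peak, which allows up to 20.4% by the Wilson interval, where the list gave 9.03%.

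**Figure D4:**
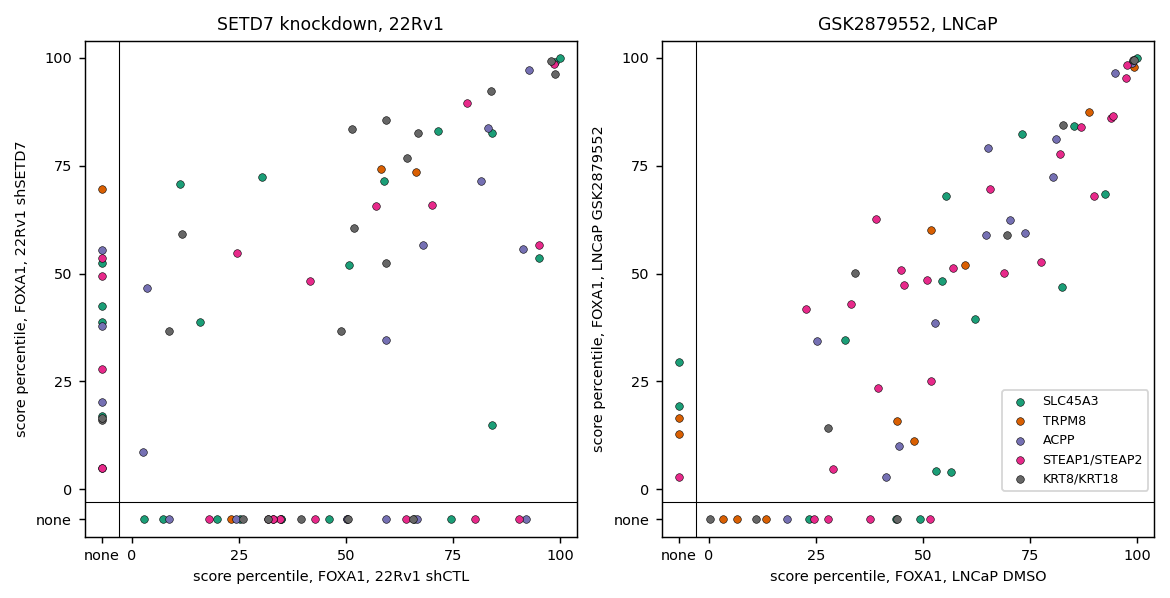
Score percentile of each peak pair in shCTL and shSETD7 (left panel) and in DMSO and GSK2879552 (right panel), coloured by window; points on the margins named none had a peak in 1 of the 2 lists. In the left panel peaks without an shSETD7 peak reach percentile 92.0 in shCTL, and in the right panel peaks without a GSK2879552 peak reach 51.6 in DMSO.

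In LNCaP, the peaks without a counterpart after GSK2879552 lay low in the DMSO list. Of 69 DMSO peaks, 14 (20.3%, 12.5 to 31.2%) had no GSK2879552 peak, where the whole list gave 28.8% and the list at the members' score deciles 22.1%. They numbered 3 of 14 at SLC45A3, 3 of 9 at TRPM8, 1 of 13 at ACPP, 4 of 24 at STEAP1/STEAP2 and 3 of 9 at KRT8/KRT18. Their median percentile was 23.9 against 65.1 for the rest, and 1 of the 41 member peaks in the upper 50% of the DMSO list was among them. These values too have no whole-list counterpart here, so they describe the member peaks only. In the other direction 5 of 61 GSK2879552 peaks (8.20%, 3.55 to 17.8%) had no DMSO peak, against 10.4% of the list. The GSK2879552 list was shorter than the DMSO list, at 64217 against 80205 peaks. With both lists held to the length of the shorter by score, 8 of 63 DMSO peaks (12.7%, 6.58 to 23.1%) had no GSK2879552 peak. The whole-list share at that length was not computed, so 12.7% cannot be set against the 28.8% of the full lists.

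With PFI-2 added, 9 of 69 DMSO peaks (13.0%, 7.02 to 23.0%) had no combination peak, against 11.4% of the list and 7.09% at the members' score deciles. With the higher-scoring 50% of each list this share was 3 of 41 peaks (7.32%, 2.52 to 19.4%), for which no whole-list share was computed. Of the combination peaks, 18 of 73 (24.7%, 16.2 to 35.6%) had no GSK2879552 peak, against 30.1% of the list. Among the 14 DMSO peaks that GSK2879552 lacked, 7 (50%, 26.8 to 73.2%) had a combination peak, where 67.9% of all such peaks did. The STEAP1/STEAP2 site chr7:89828842-89829234 was 1 of the 7, while the ACPP site chr3:132095440-132095980 was absent from both inhibitor lists. The comparisons that start from DMSO peaks share that library.

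**Figure D5:**
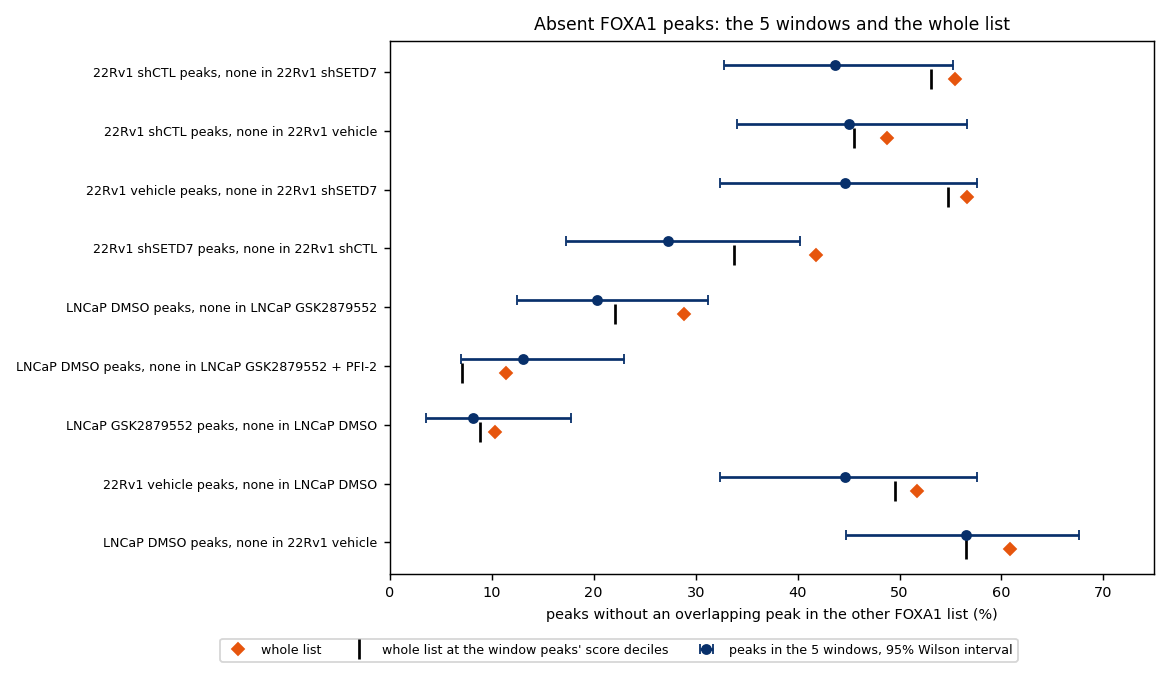
Percentage of FOXA1 peaks of a list without an overlapping peak in another list (horizontal axis) for 9 pairs of lists (rows); blue points are peaks in the 5 windows with 95% Wilson intervals, orange diamonds whole lists and black bars whole lists at the score deciles of the window peaks. The shCTL and shSETD7 rows have diamonds beyond the upper end of the interval, at 55.5 and 41.8%, while the black bars, at 53.0 and 33.8%, lie inside. Whole-list shares weighted to the members' chromosomes, 56.1 and 46.8% for these rows, are not drawn.

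The share of peaks common to the lines differed from that of the whole lists by less than counting error. Of 56 vehicle peaks, 25 (44.6%, 32.4 to 57.6%) had no DMSO peak, against 51.7% of the list, and of 69 DMSO peaks 39 (56.5%, 44.8 to 67.6%) had no vehicle peak, against 60.8%. By site, 47 of 134 (35.1%, 27.5 to 43.5%) had a peak in both lines, against 29.4% of all sites, while 51 were found in 22Rv1 lists only and 36 in LNCaP lists only. For the 51 and the 36, shares of all sites were not computed. All 3 LNCaP lists and no 22Rv1 list held 18 sites (13.4%, 8.67 to 20.2%, against 11.4%), 8 of them at STEAP1/STEAP2, 4 each at TRPM8 and ACPP, 2 at SLC45A3 and none at KRT8/KRT18. The reverse pattern covered 8 sites (5.97%, 3.06 to 11.3%, against 3.90%), 3 of them at KRT8/KRT18 and none at TRPM8. Without the vehicle list, tagged siNTC, the counts were 22 and 19, with fewer 22Rv1 lists required to hold a site. Leaving out another 22Rv1 list was not tried, so the change cannot be credited to that list in particular. The line and the library cannot be told apart here.

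Peaks above percentile 90 of a list were then examined for the other line. None of the 8, 11 and 7 such member peaks of the vehicle, shCTL and shSETD7 lists lacked a LNCaP peak, where 5.51, 10.0 and 12.4% of all such peaks did. In LNCaP, 3 of 11 DMSO peaks, 2 of 8 GSK2879552 peaks and 3 of 13 combination peaks had no 22Rv1 peak, against 11.2, 9.51 and 11.7% of all such peaks. Every member interval held its whole-list share, so at these numbers no departure from the lists was detectable. The sites behind the DMSO count were the TRPM8 site chr2:234861864-234862454 and the STEAP1/STEAP2 sites chr7:89842807-89843384 and chr7:89932399-89932996, the last at 94.4, 86.5 and 92.3 in DMSO, GSK2879552 and the combination.

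SETD7 peaks were densest at ACPP, and few overlapped FOXA1. Of the 23 SETD7 peaks in the windows, 12 lay at ACPP, 8 at STEAP1/STEAP2, 2 at SLC45A3, 1 at KRT8/KRT18 and none at TRPM8. The density at ACPP was 50 peaks per Mb, where chromosome 3 had 20.4 and all chromosomes 8.25, and at STEAP1/STEAP2 it was 28.6, where chromosome 7 had 18.8. Chromosome 2, which holds TRPM8, had 3.19 SETD7 peaks per Mb, and what set this spread over chromosomes was not tested. Scores of the 23 peaks ran from 13 to 43, none reached percentile 90, and 9 shared the score 31, as 9.43% of the whole list did. The highest, chr3:132152841-132153202 at ACPP, stood at percentile 79.6, followed by chr7:89776995-89777330 at STEAP1/STEAP2 at 76.6.

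Overlap with FOXA1 of the same vehicle cells, as labelled, was seen for 1 of the 23 SETD7 peaks (4.35%, 0.772 to 21.0%), where the whole list gave 5.86%. At the members' score deciles the list gave 3.75%, and on the members' chromosomes 4.25%. With any FOXA1 list, 2 of 23 overlapped (8.70%, 2.42 to 26.8%), against 19.0% of the list. Both were the ACPP sites described above. The median distance from a member SETD7 peak to the nearest vehicle FOXA1 peak was 5.68 kb, against 10.3 kb for all SETD7 peaks and 9.75 kb on the 5 chromosomes of the windows. By window it was 8.59 kb for the 12 peaks at ACPP, 5.17 kb at STEAP1/STEAP2 and 3.41 kb at SLC45A3. The vehicle list held 50 FOXA1 peaks per Mb at ACPP and 67.9 at STEAP1/STEAP2, where all chromosomes held 21.2. Distances were not matched for this density, and its part in them was not tested. The KRT8/KRT18 peak, chr12:53411797-53412038, lay 0.858 kb from a vehicle FOXA1 peak that was among the lowest of its list, at percentile 0.0466. Of the 15 shSETD7 peaks without an shCTL peak, none overlapped a SETD7 peak, which allows up to 20.4%, where the whole list gave 8.97%.

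Because the windows are cut at fixed positions, the peaks at their edges are given once. The combination peak at chr12:53455066-53455612, 5.34 kb beyond the KRT8/KRT18 window, stood at percentile 99.9 and was not counted, and the last peak inside it, from shCTL, stood at 8.60. The shCTL peak at chr3:131937677-131938455, 1.93 kb before the ACPP window, stood at 83.5, and the shCTL peak at chr7:89975160-89975626, 5.39 kb beyond the STEAP1/STEAP2 window, at 89.5. The first STEAP1/STEAP2 peak inside its window was from shSETD7, 0.482 kb from the edge, at 56.6. At SLC45A3 and TRPM8 the nearest peaks outside stood between percentiles 8.60 and 23.6.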

How the data were processed

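ChIP-seq was measured in 7 libraries, 1 per group, with groups taken from sample titles. The submitters' processing notes name MACS2 2.1.4, BWA 0.7.17-r1188, FastQC 0.11.9 and SAMtools 1.9, and build hg19. Settings, and whether an input control was used, are not stated there. Each deposited list holds 1 score per peak, a whole number set by the authors whose definition is not given; it was used to rank peaks within a list only. Peaks of the autosomes, X and Y were analysed with Python 3.11.15, pandas 2.3.3 and SciPy 1.17.1. Shared peaks overlapped by at least 1 bp. The overlap code was tested on simulated lists, and against bedtools 2.31.1 on the shCTL and shSETD7 lists. No tests were run; shares have 95% Wilson intervals. Score deciles weight the whole list to the members' scores, and chromosome shares weight it to the members' chromosomes.

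Sites were named by rule. Each window gave the site with the highest median percentile over the FOXA1 lists (absent counted as 0) and all SETD7 sites. It also gave the shCTL peak without an shSETD7 peak that was highest by its shCTL percentile. The DMSO peak without a GSK2879552 peak was chosen by its DMSO percentile. Among sites in all 3 lists of 1 line and none of the other, the highest percentile in any list of that line decided. The genes, windows and lists were chosen with earlier results of these data known. Alternatives were other overlaps, gaps, window rules, list lengths and leaving out a window or the vehicle list.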

Additional observations from a re-analysis of the deposited data

How the results depend on the processing

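Under 81 alternative settings of 17 results, 75 values stayed within the main value's counting interval or 1.5 times the main count. Whether a share changed sides of its whole-list share was not tested. With the higher-scoring 50% of each list, the 155 sites became 94. The share of SETD7 peaks with a vehicle FOXA1 peak, 4.35%, became 0 with a reciprocal overlap of 50% (0 of 23 peaks), with the higher-scoring 50% of each list (0 of 15) and without the ACPP window (0 of 11), since it rests on 1 ACPP peak. The median SETD7 percentile of 58.1 became 61.1 when ranked within its chromosome. Without the vehicle FOXA1 list, an alternative chosen after seeing the data, sites of all 22Rv1 lists and no LNCaP list rose from 8 to 19, since fewer lists had to hold a site. Over the settings run, shCTL member peaks without an shSETD7 peak ranged from 33.3 to 50.7%, DMSO member peaks without a GSK2879552 peak from 12.7 (lists of equal length) to 24.6%, and those without a combination peak from 7.32 to 15.9%. Whole-list shares were not recomputed for the changed lists or overlap rules. No paired analysis was possible because each group was 1 library. Depth is not in the lists, so a missing peak is one that was not called, and small windows, such as the 3 shCTL peaks of TRPM8, allow only wide intervals.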
